A study of Mus musculus with 9 samples.

Results

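The 10 genes described here encode the NF-kB transcription factor subunits (Nfkb1, Nfkb2, Rel, Rela and Relb), proteins that restrain or tune them (Nfkbia, Nfkbiz, Tnfaip3 and Bcl3) and the adaptor Myd88. They were chosen by name, as rows of the count tables whose gene ID maps to these symbols, and all 10 were found among the 56262 genes listed. RNA was sequenced from cells of C57BL/6 WT mice sorted by the submitters as long-term hematopoietic stem cells (LT-HSCs), the rare marrow cells that sustain blood formation. Each of 3 groups held 3 libraries. Control mice were untreated. 5-FU+Saline mice were given 250 mg/kg 5-FU (fluorouracil, a chemotherapy agent toxic to cycling cells) and then PBS, on a schedule the labels do not give. 5-FU+FMT mice were given the same dose of 5-FU and then 5 mg/kg FMT into a vein on days 1, 4 and 7. What FMT stands for is not said in the labels. The protocol text is the same for all libraries and puts the sort (Lin-Sca1+c-Kit+CD150+, with the last gate written C48-) on day 8. No label says whether a library is 1 mouse or a pool. The p-values measure the spread between these libraries, which may be technical and cannot be taken as a spread between mice.

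NF-kB factors are dimers of 5 related proteins that share a DNA-binding Rel homology domain. In resting cells IkB proteins such as the product of Nfkbia hold the dimers in the cytoplasm. Signals from Toll-like, interleukin-1 and TNF receptors activate a kinase complex that marks IkB for destruction and frees the dimers. The dimers then switch on inflammatory genes and also their own brakes, among them Nfkbia and Tnfaip3, which closes a feedback loop. In blood stem cells the pathway is known for its part in survival and in responses to inflammation.

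Promoter windows from RefSeq (GRCm38.p6, 250 bases before to 50 after an annotated start) matched 7 of the 10 genes, with 10 windows among them. They were searched on both strands for the 10-letter consensus known as the kB motif. It was found in 7 of the 10 windows, which belong to 5 genes, and in 4.51% of all 32851 windows in the table. The second and the third Nfkb2 window overlap and share 1 site, GGGACTTTCC, at 11 in one and -225 in the other, so those 7 windows are not all separate. The windows of Rela and Myd88 held no match, and neither did the second Tnfaip3 window. The next lines show the first windows of 4 genes whose RNA differed in every comparison, 5′ to 3′ on the gene's strand, with kB matches in capitals.
Nfkbia, chr12:55492598-55492897, minus strand: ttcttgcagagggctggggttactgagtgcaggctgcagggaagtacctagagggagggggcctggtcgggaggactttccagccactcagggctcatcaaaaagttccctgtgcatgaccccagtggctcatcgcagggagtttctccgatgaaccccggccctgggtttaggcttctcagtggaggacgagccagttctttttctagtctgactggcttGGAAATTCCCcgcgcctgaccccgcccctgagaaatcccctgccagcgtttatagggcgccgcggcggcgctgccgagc
Tnfaip3, chr10:19015361-19015660, minus strand: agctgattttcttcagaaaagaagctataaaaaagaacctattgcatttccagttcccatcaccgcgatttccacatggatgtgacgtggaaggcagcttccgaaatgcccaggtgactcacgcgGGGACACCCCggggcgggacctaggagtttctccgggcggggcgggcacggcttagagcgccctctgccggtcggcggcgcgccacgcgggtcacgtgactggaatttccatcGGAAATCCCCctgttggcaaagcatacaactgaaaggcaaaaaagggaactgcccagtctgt
Rel, chr11:23770920-23771219, minus strand: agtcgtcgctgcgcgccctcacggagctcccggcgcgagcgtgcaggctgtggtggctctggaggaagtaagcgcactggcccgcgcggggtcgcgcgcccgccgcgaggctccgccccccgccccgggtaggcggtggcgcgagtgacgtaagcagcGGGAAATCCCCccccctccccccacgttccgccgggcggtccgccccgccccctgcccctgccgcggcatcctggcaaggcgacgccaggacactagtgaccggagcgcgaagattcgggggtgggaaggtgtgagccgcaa
Nfkb2, chr19:46304487-46304786, plus strand: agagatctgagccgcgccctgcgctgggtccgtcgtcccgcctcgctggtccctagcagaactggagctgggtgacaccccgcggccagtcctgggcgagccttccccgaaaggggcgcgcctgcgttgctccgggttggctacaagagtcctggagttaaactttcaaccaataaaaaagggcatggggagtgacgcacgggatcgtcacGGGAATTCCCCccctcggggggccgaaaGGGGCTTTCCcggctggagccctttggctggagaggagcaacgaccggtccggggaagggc

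The Nfkbia match GGAAATTCCC began 29 bases before the start. Tnfaip3 had GGGACACCCC at -125 and GGAAATCCCC at -12. In Rel and Nfkb2 the longer stretch of capitals holds a pair of matches, 1 base apart, and Nfkb2 had a further match, GGGGCTTTCC, at -11. Bcl3 had a single match, GGGAAGTCCC, at 3 bases into the transcript. The AP-1 motif TGANTCA was found in the Tnfaip3 window shown, as TGACTCA at -136, and in the second Nfkb2 window, against 7.81% of all windows. The CRE motif TGACGTCA (1.79% of all windows) and the CArG box (1.63%) were found in none of the 10. No match overlapped that of another motif. A match is a string of letters and does not show that a factor was bound in these cells.

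Levels are given as CPM, read-pair counts scaled to library size after TMM normalization. To compare genes with each other, CPM was divided by exon length in kilobases. That length joins all annotated exons of a gene, 12061 bases for Nfkb1 and 4584 for Nfkb2, so ranks between genes depend on it. On that scale Nfkbia was the highest of the 10 in each group, at 132 ± 5.42 CPM per kilobase in Control, 84.1 ± 1.55 with saline and 99.6 ± 1.29 with FMT (SD, n = 3). Relb was the lowest in each group, at 6.33 ± 0.198, 5.73 ± 0.701 and 5.53 ± 0.686 CPM per kilobase. Control ranked Nfkbia, Nfkbiz, Rela, Tnfaip3, Nfkb2, Nfkb1, Rel, Myd88, Bcl3 and Relb from high to low, with no overlap between neighbours. In 5-FU+Saline Nfkbiz ranked below Rela (38.6 ± 1.07 against 35.2 ± 0.547 CPM per kilobase), and Nfkb1 stood above Tnfaip3 and Nfkb2. The neighbours whose libraries overlapped were Nfkb2 and Myd88 in 5-FU+Saline and Rel and Bcl3 in 5-FU+FMT.

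**Figure D1:**
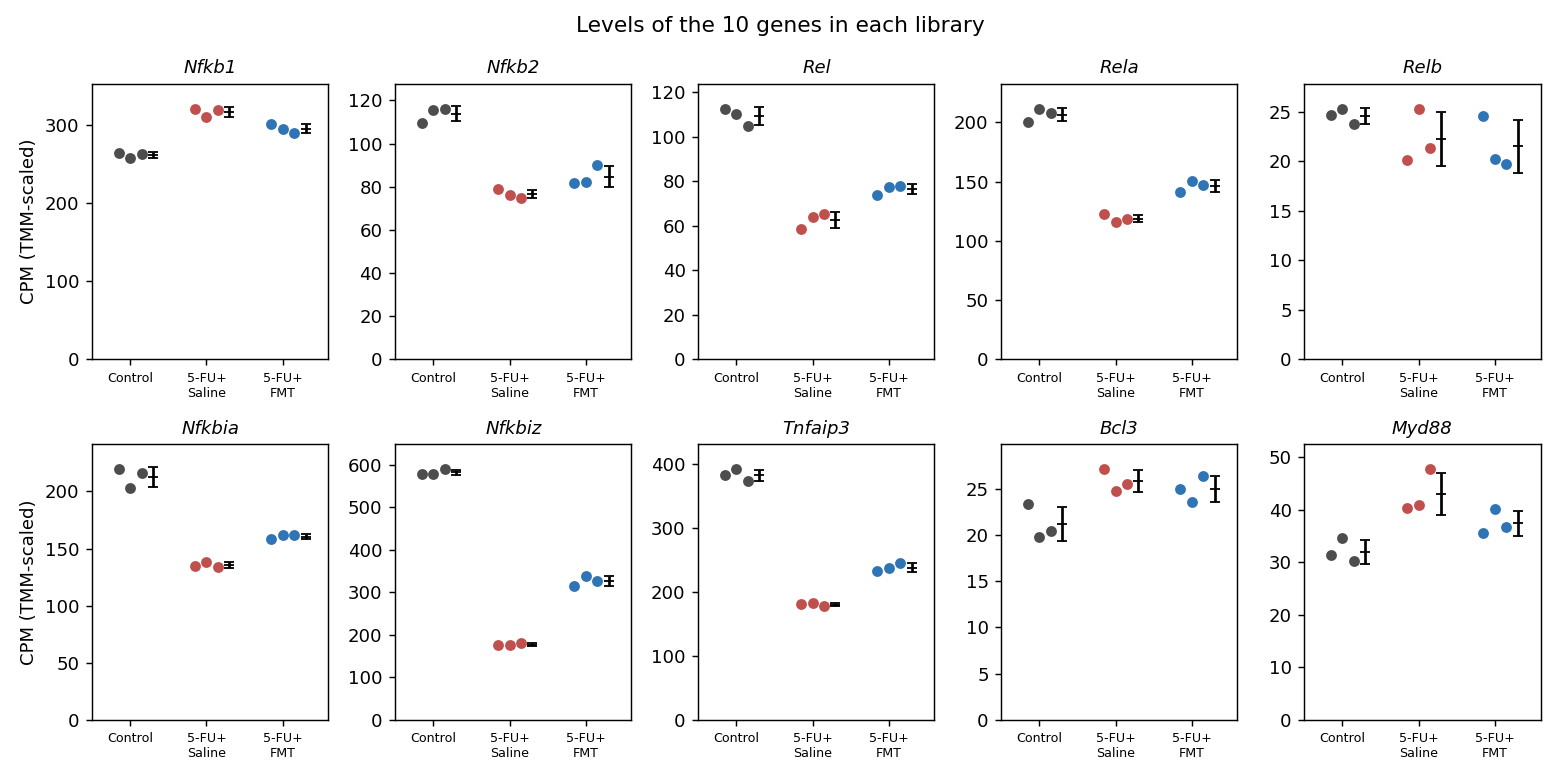
Each panel plots the CPM of 1 gene in the 9 libraries, with points for libraries and a bar for the group mean and SD beside them; axes start at 0. Nfkbiz and Tnfaip3 are highest in Control and lowest in 5-FU+Saline with no overlap, while the 3 groups of Relb overlap.

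Features of the whole libraries moved with the groups and stand beside each result below. Total counts ranged from 11098031 to 19270976 per library. Xist, an RNA of female cells, was at 0.870 ± 0.421 CPM in Control, 1201 ± 20.2 with saline and 682 ± 19.8 with FMT. The Y-linked Ddx3y was at 168 ± 4.23, 38.9 ± 2.58 and 100.04 ± 2.28 CPM, so treatment and sex-linked RNA cannot be told apart. Each 5-FU+Saline library held both Xist (1183 to 1223 CPM) and Ddx3y (37.1 to 41.9). So did each 5-FU+FMT library (659 to 695 and 98.0 to 102 CPM). Every treated library thus held RNA of both sexes and does not read as 1 mouse. Of 11 B cell markers 10 were higher in 5-FU+Saline than in Control, and their summed level was 66.1 to 66.9 CPM in Control, 962 to 977 with saline and 456 to 499.7 with FMT. Neutrophil markers (4 higher and 5 lower of 10 in 5-FU+Saline against Control) summed to 2534 to 2573, 235 to 249.6 and 1019 to 1145 CPM. The neutrophil sum follows its most abundant genes, such as Mpo, at 1277, 29.9 and 469 CPM. Ngp went the other way, at 0.865, 8.45 and 4.55 CPM. Erythroid markers (9 of 9 lower) summed to 433 to 446, 25.9 to 28.4 and 184 to 194 CPM, and dendritic cell markers (2 higher and 5 lower of 8 tested) to 676 to 696, 182 to 196 and 374 to 408. Flt3 made up most of the dendritic sum in Control, and was at 584, 70.9 and 280 CPM. Siglech went the other way, at 0.980, 7.37 and 3.56 CPM. Stromal markers (8 higher and 1 lower of 9) summed to 63.2 to 64.2, 262 to 269 and 82.0 to 85.9 CPM, and endothelial markers (5 higher and 1 lower of 7) to 194 to 198, 335 to 356 and 267 to 268. Pdgfrb, the 1 stromal marker that was lower, made up most of the stromal sum in Control. It was at 57.1, 13.0 and 27.6 CPM (Control, saline, FMT), and Cxcl12 at 2.32, 127 and 24.2. In 5-FU+FMT against Control 8 of the 9 stromal markers were still higher and 1 was lower. Monocyte and macrophage markers (8 higher and 3 lower of 11) summed to 221 to 245, 205 to 210.4 and 194 to 201 CPM, and T and NK cell markers (5 higher and 2 lower of 7 tested) to 57.9 to 70.4, 44.7 to 46.9 and 51.0 to 56.9. None of these markers was at 0 throughout a group. Of the sort markers, Cd48, the negative gate, was at 25.8, 45.2 and 39.3 CPM per kilobase (Control, saline, FMT), above Slamf1, a positive gate, at 1.36, 5.61 and 3.96. In bulk RNA fewer cells of a type and less RNA per cell cannot be told apart, and the part of these marker shifts in the results was not tested.

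The comparison of 5-FU+Saline with Control sets cells taken after 5-FU beside untreated ones. Of the 10 genes 6 were lower, 3 were higher and Relb was not called (edgeR quasi-likelihood test, Benjamini-Hochberg adjusted p under 0.05). Over all 16595 genes tested 32.7% were lower and 32.8% higher, so the 6 of 10 lower stood above the background and the 3 of 10 higher close to it. Because the 10 were chosen with earlier results of these data known, setting them beside all genes is a description, not a test. The median log2 fold change of the 10 was -0.61, beside -0.02 over all genes. Libraries of both groups did not overlap for 9 of the 10, against 67.8% of all genes.

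Among subunits, Rela, which carries a strong activation domain (chromosome 19, 5637483 to 5648130), had 200.4, 212 and 208 CPM in the Control libraries and 122, 116 and 118 in 5-FU+Saline. All 3 treated libraries lay below every Control library. Rela fell 1.74-fold (log2 -0.80, SE 0.0373, adjusted p = 1.19e-31). Rel, the c-Rel subunit of lymphoid and myeloid cells (chromosome 11, 23736847 to 23770970), went from 113, 110.4 and 104.9 CPM to 58.4, 63.9 and 65.4. It too fell 1.74-fold with no overlap (log2 -0.80, SE 0.0499, adjusted p = 2.25e-24). Nfkb2, which encodes the p100 precursor of p52 in the non-canonical branch (chromosome 19, 46304320 to 46312385), went from 109.7, 116 and 116 CPM to 78.8, 76.3 and 74.7. The groups were apart, and the fall was 1.49-fold (log2 -0.57, SE 0.0471, adjusted p = 2.78e-18). Its span overlaps Psd and AC114539.1 on the other strand. The counting shows no strand option, so reads of the overlap cannot be assigned to a strand.

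Nfkb1, which encodes the p105 precursor of p50 (chromosome 3, 135584655 to 135691547), moved the other way. Its libraries had 264, 257 and 263 CPM in Control and 321, 309.6 and 319.5 in 5-FU+Saline. Every treated library was above every Control library, and Nfkb1 rose 1.21-fold (log2 0.28, SE 0.0300, adjusted p = 4.26e-13). The Nfkb1 span overlaps Gm43430 on the same strand, which had 209 counts over all libraries. Relb, the partner of p52 in the non-canonical branch (chromosome 7, 19606217 to 19629438), had 24.7, 25.3 and 23.8 CPM in Control and 20.1, 25.3 and 21.4 in 5-FU+Saline. The groups overlapped, and its log2 change of -0.14 had a 95% interval of -0.33 to 0.05 (adjusted p = 0.182). Leaving out replicate 2 of 5-FU+Saline (adjusted p = 0.0416), or using upper-quartile factors (0.0372), made Relb pass as lower.

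Nfkbiz and Tnfaip3 had the 2 largest changes of the 10. Nfkbiz encodes IkB-zeta, a nuclear IkB that helps switch on a subset of NF-kB targets (chromosome 16, 55811375 to 55838899). It had 578, 578 and 588 CPM in Control and 175, 175 and 179.9 in 5-FU+Saline. No other member showed so wide a gap between the groups: Nfkbiz fell 3.29-fold (log2 -1.72, SE 0.0299, adjusted p = 9.5e-60) and ranked 1226 of all genes by size of change. Tnfaip3, which encodes A20, a ubiquitin-editing enzyme that shuts signalling down upstream of the kinase complex (chromosome 10, 19000910 to 19015657), went from 383, 392 and 374 CPM to 181, 182 and 178. It fell 2.12-fold (log2 -1.09, SE 0.0311, adjusted p = 3.87e-45). Nfkbia, which encodes IkB-alpha, the classical cytoplasmic inhibitor (chromosome 12, 55489410 to 55492647), went from 219, 203 and 216 CPM to 135, 138 and 133. The groups were apart and Nfkbia fell 1.57-fold (log2 -0.65, SE 0.0360, adjusted p = 1.78e-27).

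Bcl3, a nuclear IkB that binds p50 and p52 dimers (chromosome 7, 19808462 to 19822770), had 23.3, 19.8 and 20.4 CPM in Control and 27.1, 24.8 and 25.6 in 5-FU+Saline. These libraries did not overlap, and Bcl3 rose 1.22-fold (log2 0.28, SE 0.0888, adjusted p = 0.00386). Its span overlaps Gm16174 and Gm16175 on the opposite strand. Myd88, the adaptor that links Toll-like and interleukin-1 receptors to the kinases (chromosome 9, 119335934 to 119341411), went from 31.3, 34.6 and 30.2 CPM to 40.4, 41.0 and 47.7. It rose 1.36-fold (log2 0.44, SE 0.0746, adjusted p = 3.47e-07) with no overlap. Its span overlaps Acaa1a on the opposite strand and Slc22a14 on the same strand, the latter with 7 counts over all libraries.

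**Figure D2:**
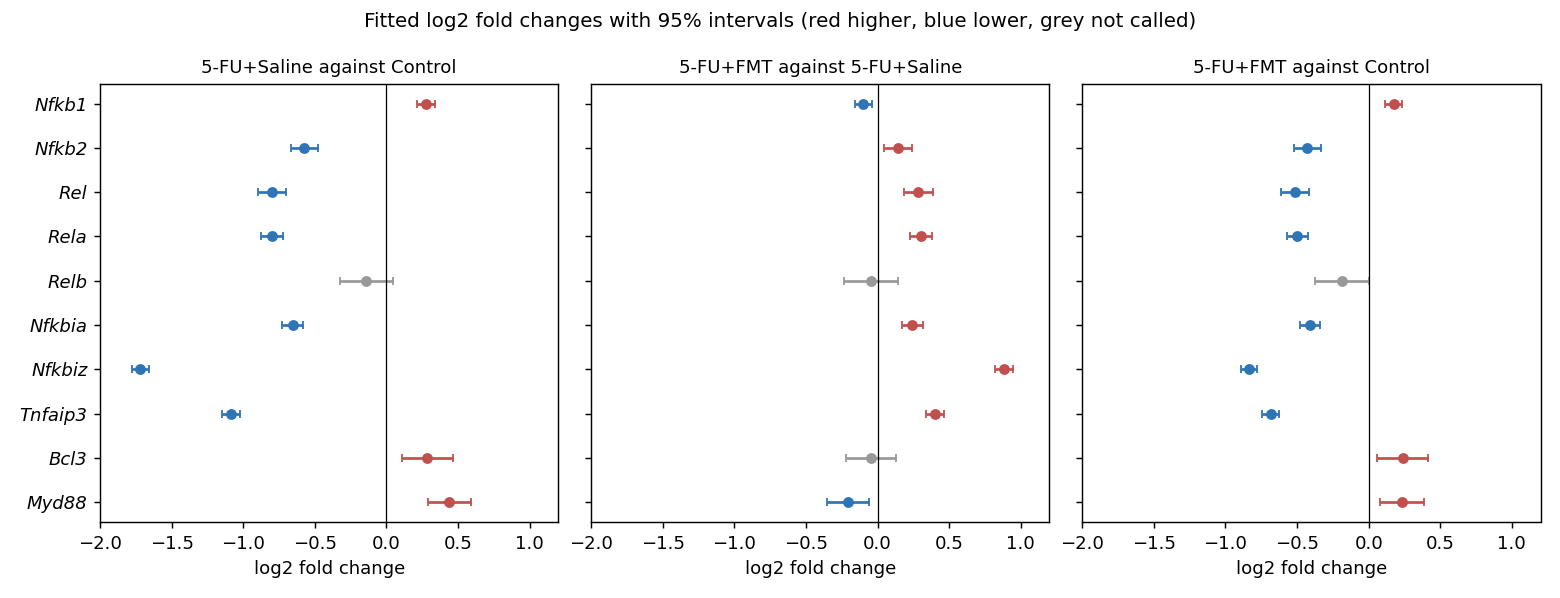
Points are fitted log2 fold changes of the 10 genes in the 3 comparisons and bars their 95% intervals; red is called higher, blue lower and grey not called. Nfkbiz lies farthest from 0 in each panel, at -1.72, 0.88 and -0.84.

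With FMT in place of saline after 5-FU, the genes that were lower in 5-FU+Saline than in Control stood higher. Of the 10 genes 6 were higher in 5-FU+FMT than in 5-FU+Saline, 2 were lower, and Relb and Bcl3 were not called. Of all genes 17.7% were higher and 19.2% lower, so the 6 of 10 higher were well above the background and the 2 of 10 lower were near it. Here too this is a description, given how the 10 were chosen. The median log2 fold change of the 10 was 0.19, beside 0.01 over all genes, and 8 of the 10 did not overlap, against 46.3% of all. This comparison shares the 5-FU+Saline libraries with the one before it, so opposite signs in both are not independent observations.

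Nfkbiz had 314, 338 and 326 CPM in the 5-FU+FMT libraries, all above the 175 to 179.9 of 5-FU+Saline. It rose 1.84-fold (log2 0.88, SE 0.0305, adjusted p = 4.6e-39). Tnfaip3 had 232, 237 and 245 CPM with FMT and rose 1.32-fold (log2 0.40, SE 0.0319, adjusted p = 3.64e-18). Nfkbia had 158, 162 and 161 CPM and rose 1.18-fold (log2 0.24, SE 0.0367, adjusted p = 6.39e-08). These 3 were among the 8 of 10 genes whose libraries did not overlap with saline. Relb and Bcl3, given below, did overlap.

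Rela had 141, 150 and 147 CPM with FMT and rose 1.23-fold (log2 0.30, SE 0.0383, adjusted p = 4.99e-10). Rel had 73.96, 77.6 and 77.6 CPM and rose 1.22-fold (log2 0.28, SE 0.0515, adjusted p = 4.46e-06). Nfkb2 had 81.6, 82.2 and 90.2 CPM and rose 1.11-fold (log2 0.14, SE 0.0484, adjusted p = 0.0131). Nfkb2 no longer passed when replicate 3 of 5-FU+Saline (adjusted p = 0.077) or of 5-FU+FMT (0.163) was left out. Nfkb1, with 301, 295 and 289 CPM, fell 1.07-fold (log2 -0.10, SE 0.0296, adjusted p = 0.00436), a small step with no overlap between the groups.

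Myd88 had 35.5, 40.1 and 36.7 CPM with FMT and fell 1.15-fold against saline (log2 -0.21, SE 0.0727, adjusted p = 0.0189). Myd88 no longer passed when replicate 3 of 5-FU+Saline was left out, with a log2 change of -0.12 (adjusted p = 0.268), or without 5-FU+FMT replicate 1 (0.106) or 3 (0.0683), so the count of 2 lower genes became 1. Bcl3 had 25.02, 23.6 and 26.4 CPM with FMT, of which 23.6 lay below every 5-FU+Saline library and the others among them (log2 -0.05, 95% interval -0.22 to 0.13, adjusted p = 0.717). Relb had 24.6, 20.2 and 19.7 CPM (log2 -0.05, 95% interval -0.23 to 0.14, adjusted p = 0.749), and its sign turned to 0.05 without 5-FU+Saline replicate 2 and to 0.01 without 5-FU+FMT replicate 3.

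The third comparison, 5-FU+FMT against Control, reuses the libraries of both others. In it 6 of the 10 genes were lower and 3 higher, and Relb was not called (adjusted p = 0.103, 95% interval of the log2 change -0.38 to 0.00380). Of all genes 21.6% were lower and 25% higher, and 9 of the 10 did not overlap, against 52.7% of all. TMM gave 4151 genes higher and 3584 lower over the whole table, while upper-quartile factors turned that split to 3315 and 4559. The median of the 10 was -0.42, beside -0.01 over all genes.

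Nfkbiz remained 1.78-fold below Control (log2 -0.84, SE 0.0286, adjusted p = 2e-39) and Tnfaip3 1.61-fold below (log2 -0.68, SE 0.0306, adjusted p = 4.03e-32). Rel, Rela, Nfkb2 and Nfkbia were 1.43-fold, 1.41-fold, 1.35-fold and 1.33-fold lower (adjusted p from 6.83e-20 for Rela to 1.94e-12 for Nfkb2). Nfkb1 was 1.13-fold higher (log2 0.18, adjusted p = 1.08e-06). Bcl3 and Myd88 were both 1.18-fold higher (adjusted p = 0.0252 and 0.00919), and these calls were the least firm of the 10. The Bcl3 call was lost without Control replicate 2 (adjusted p = 0.0926) or 3 (0.105), without 5-FU+FMT replicate 1 (0.0553) or 3 (0.101) and with upper-quartile factors (0.113). That of Myd88 was lost without Control replicate 3 (0.0745), without 5-FU+FMT replicate 2 (0.0783) and with upper-quartile factors (0.0652). Without Control replicate 3, or with upper-quartile factors, Nfkb1 alone was called higher. Relb was called lower with upper-quartile factors (adjusted p = 0.0245) and without 5-FU+FMT replicate 1 (0.0210).

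The distance covered between both other groups can be read from the CPM means. With the 5-FU+Saline mean as 0% and the Control mean as 100%, the 5-FU+FMT libraries averaged 36.9% for Nfkbiz, 32.2% for Nfkbia and 28.5% for Tnfaip3. Rela stood at 31.4% and Rel at 29.6%, Nfkb2 at 21.7% and Nfkb1 at 38.8%. Among these 7 genes single libraries ran from 13.5% (Nfkb2) to 49.3% (Nfkb1). Myd88, at 50.9%, and Bcl3, at 18.0%, had wide spreads, from 26.6% to 68.4% and from -11.6% to 48.1%. Relb gives no reading, since its end points overlapped. On the same scale Xist stood at 43.2% and 4 Y-linked genes, from Eif2s3y to Uty, between 45.8% and 58.4%. The part of the difference in sex-linked RNA in these positions was not tested.

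**Figure D3:**
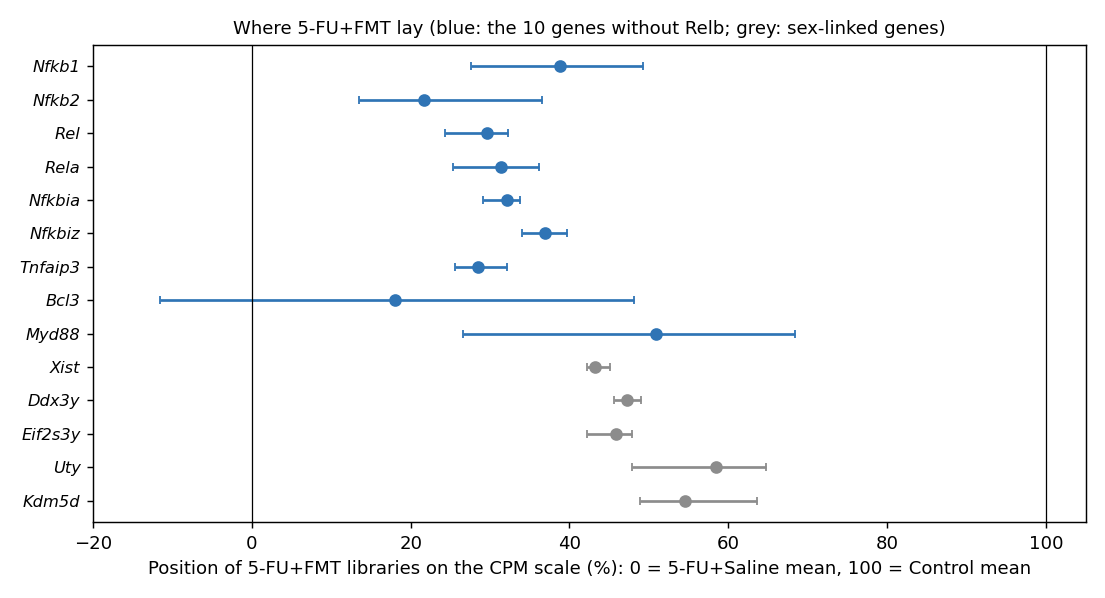
Points give the mean position of the 3 5-FU+FMT libraries between the 5-FU+Saline mean (0%) and the Control mean (100%) on the CPM scale, and bars the lowest and highest library. Nfkbiz, Nfkbia and Tnfaip3 have narrow bars between 25.6% and 39.7%, and the 5 sex-linked genes in grey lie between 42.2% and 64.7%.

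The make-up of the subunit pool differed between groups. Summed over the 5 genes, subunit RNA was at 135 ± 2.14 CPM per kilobase in Control, 95.7 ± 0.769 with saline and 106 ± 1.23 with FMT (SD, n = 3). Rela made up 49.9% ± 0.587 of the sum in Control, 40.4% ± 0.796 with saline and 44.8% ± 1.03 with FMT. Nfkb1 made up 16.1% ± 0.463, 27.4% ± 0.375 and 23.0% ± 0.723. Nfkb2 held between 17.4% and 18.4% in all groups. These are shares of RNA that depend on the exon lengths used, and they do not measure protein or the processing of p105 and p100.

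Ratios taken within a library do not depend on the scaling between libraries. The log2 ratio of Nfkb2 to Nfkb1 was 0.20 ± 0.0595 in Control, -0.65 ± 0.0431 with saline and -0.41 ± 0.107 with FMT. These groups did not overlap. Per kilobase, Nfkb2 stood above Nfkb1 in each Control library and below it in each treated one. In CPM, Nfkb1 was above Nfkb2 in every group (261 against 114 in Control). Which of both genes is higher thus depends on the exon lengths used, while the differences between groups do not. The ratio of Relb to Rela was -3.41 ± 0.0531 in Control and -2.76 ± 0.211 in 5-FU+Saline, a difference of 0.65, and it was -3.11 ± 0.218 in 5-FU+FMT, which overlapped 5-FU+Saline. The ratio of Rel to Rela was at -2.20 ± 0.0787, -2.21 ± 0.122 and -2.22 ± 0.0170, and its groups overlapped, with differences between -0.02 and -0.01. Nfkbia stood near parity with the summed subunits, at -0.03 ± 0.0811 in Control, -0.19 ± 0.0344 with saline and -0.09 ± 0.00227 with FMT. The difference of -0.16 between 5-FU+Saline and Control became -0.39 when raw counts replaced counts per kilobase. Raw counts give Nfkb1, with its long exon total, more weight. For 5-FU+FMT against Control the groups overlapped, and the difference of -0.07 became -0.03 without Control replicate 1 and -0.11 without Control replicate 2. In exact permutation tests, two-sided and with 3 libraries against 3, no ratio can go below p = 0.1. The smallest adjusted p over the 12 ratio tests was 0.171.

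**Figure D4:**
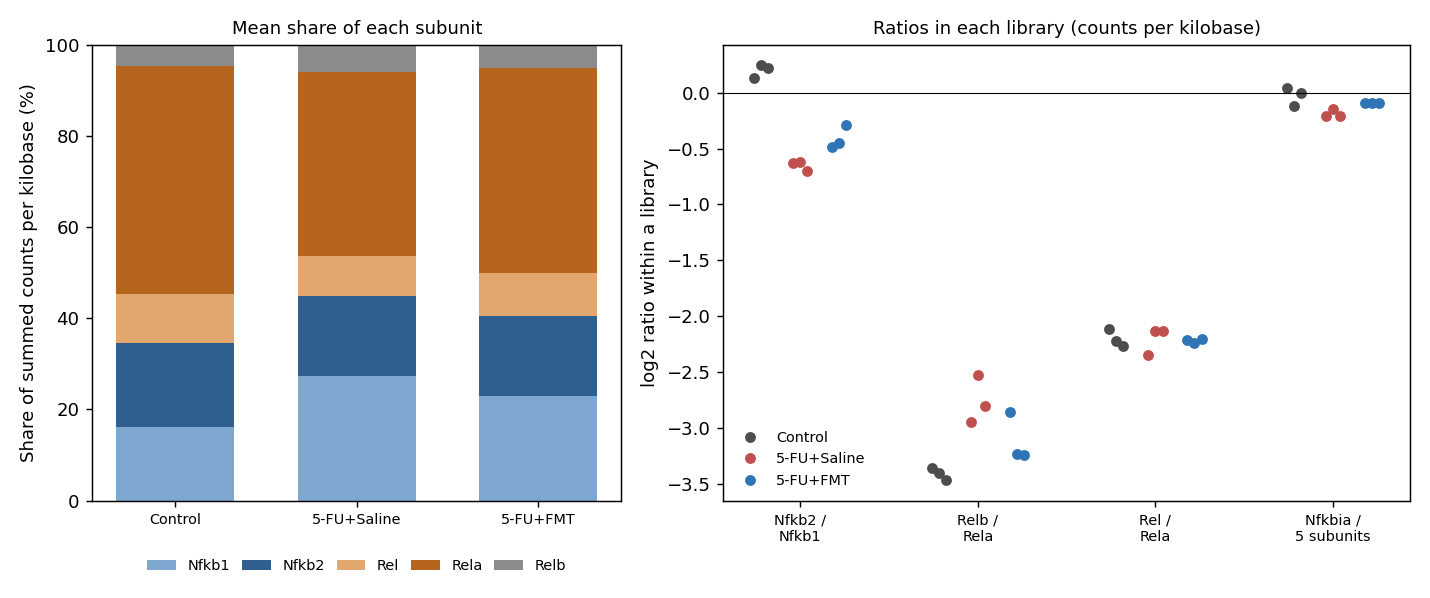
Left, stacked bars give the mean share of each subunit in the summed counts per kilobase, in percent; right, each point is the log2 ratio of 2 genes (or of Nfkbia to the 5 subunits) in 1 library. On this scale, which depends on exon length, the Nfkb2 to Nfkb1 ratio is above 0 in Control alone. The Rel to Rela points of the 3 groups overlap.

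The rest of the pathway was read from 72 other genes, of which 71 passed the filter on low counts and Cxcl1 did not. In 5-FU+Saline against Control 17 were higher and 35 lower (median log2 fold change -0.18), beside 32.8% and 32.7% of all genes. In 5-FU+FMT against 5-FU+Saline 23 were higher and 7 lower (median 0.11), beside 17.7% and 19.2%. In 5-FU+FMT against Control 10 were higher and 21 lower (median -0.07), beside 25% and 21.6%. With upper-quartile factors 32 were lower, and the count over all genes also rose, to 4559 of 16595. The lists were drawn up with earlier results of these data known.

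Among 17 receptor genes 4 were higher and 6 lower in 5-FU+Saline, beside 32.8% and 32.7% of all genes. The same shares are the background for the adaptors and kinases below. Il1r1, the signalling interleukin-1 receptor, fell from 109 to 26.5 CPM (4.15-fold, adjusted p = 1.34e-43) and rose 2.41-fold with FMT, to 63.4. Tlr1 rose 3.05-fold from 1.19 CPM. Of 15 adaptors and ubiquitin ligases 2 were higher and 8 lower: Irak2, a kinase-like partner of Myd88, fell from 23.7 to 11.2 CPM (2.13-fold), while Traf3, which restrains the non-canonical branch, rose by 0.38 on the log2 scale. With FMT Irak2 rose 1.52-fold and Traf3 fell 1.17-fold. Of 11 genes for the kinases and their regulatory partners, 4 were higher and 7 lower in 5-FU+Saline. Ikbke fell 2.27-fold and Map3k8, which encodes the kinase Tpl2, 2.64-fold, whereas Tab2, an adaptor of the kinase TAK1, rose 1.68-fold. Ikbke and Map3k14, which encodes the non-canonical kinase NIK, were 1.60-fold and 1.53-fold higher with FMT than with saline.

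Of the other IkB genes, Nfkbid, a nuclear IkB, fell from 150.5 to 92.8 CPM (1.62-fold, adjusted p = 3.15e-25) and rose 1.17-fold with FMT. Nfkbib rose 1.22-fold in 5-FU+Saline, and Nfkbie was at 36.4 and 36.2 CPM (adjusted p = 0.944). Of 7 further brakes 5 were lower in 5-FU+Saline and none higher, beside 32.7% and 32.8% of all genes. With FMT against saline 5 were higher and none lower, beside 17.7% and 19.2%. Both comparisons share the 5-FU+Saline libraries, so these opposite directions are not independent. Zfp36, which marks inflammatory mRNAs for decay, fell from 2354 to 507 CPM (4.64-fold) and rose 2.24-fold with FMT. Zc3h12a, an RNase of the same kind of mRNAs, fell 2.95-fold and rose 1.47-fold. The other brakes that fell in 5-FU+Saline were Tnip2, Cyld and Tnip1, with log2 changes of -0.61, -0.30 and -0.25. Cyld is a deubiquitinase, and the Tnip proteins bind A20, the product of Tnfaip3.

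Target genes went both ways, as did all genes tested. In 5-FU+Saline 6 of the 18 that passed the filter were higher and 8 were lower, beside 32.8% and 32.7% of all genes. The chemokine Ccl3 went from 108 ± 1.64 CPM in Control to 0.594 ± 0.247 in 5-FU+Saline and 38.8 ± 2.70 in 5-FU+FMT, and Ccl4 from 100.5 ± 0.768 to 2.44 ± 0.571 and 37.4 ± 4.70. The adhesion gene Vcam1 rose 5.63-fold in 5-FU+Saline and the survival gene Bcl2l1 2.86-fold, and both fell with FMT, 3.12-fold and 1.49-fold. Vcam1 is also one of the macrophage markers summed above. Tnf itself was at 11.2 ± 1.26, 11.9 ± 2.26 and 12.8 ± 0.807 CPM in Control, 5-FU+Saline and 5-FU+FMT.

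**Figure D5:**
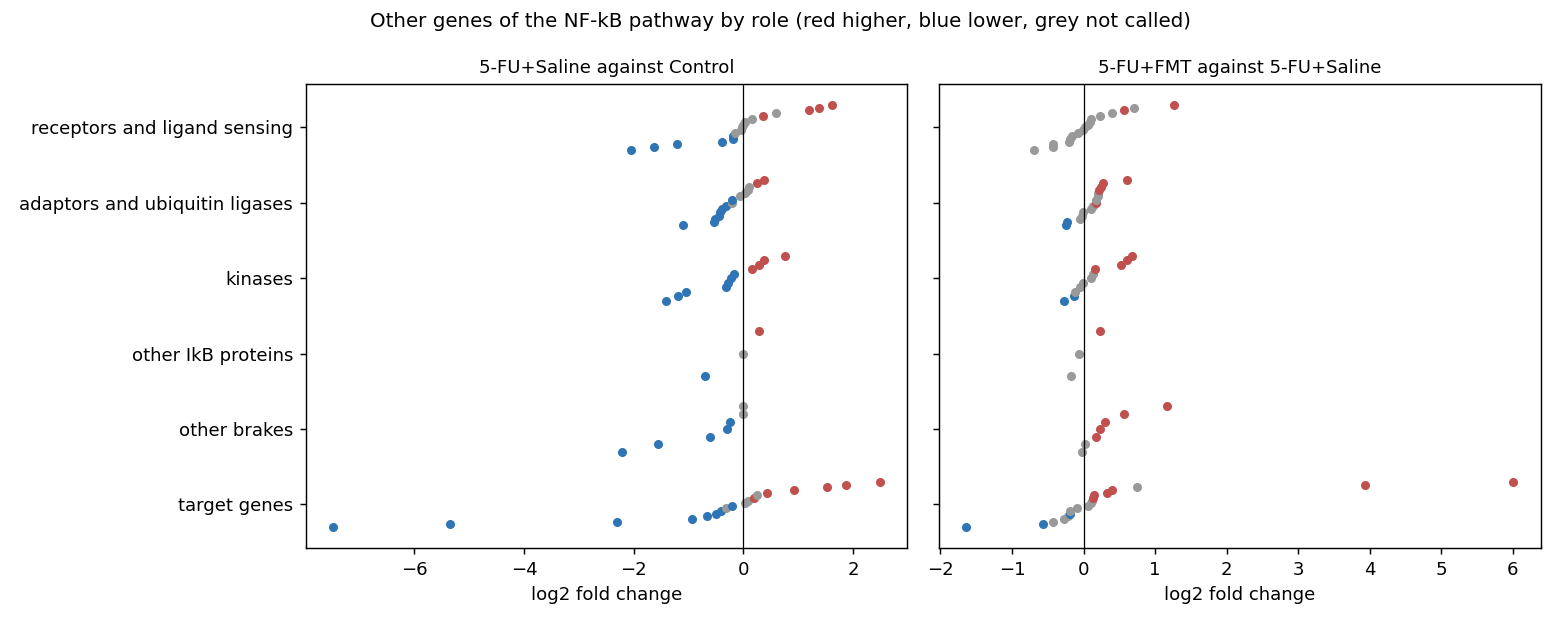
Each point is the fitted log2 fold change of 1 of 71 other pathway genes, grouped by role, in 5-FU+Saline against Control (left) and 5-FU+FMT against 5-FU+Saline (right); red is called higher, blue lower and grey not called. Among the brakes no point is red on the left or blue on the right, and Ccl3 and Ccl4 lie farthest out among the targets. Both panels share the 5-FU+Saline libraries.

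Immediate early genes are switched on within minutes by many stimuli and also by tissue handling. Their calls had the direction of those of Nfkbiz, Tnfaip3, Nfkbia, Rel, Rela and Nfkb2 in 5-FU+Saline against Control and in 5-FU+FMT against 5-FU+Saline. Nfkb1 and Myd88 were called the other way in both, and Bcl3 only in the first. All 19 immediate early genes were lower in 5-FU+Saline than in Control (median log2 fold change -2.55). All 19 were higher with FMT than with saline (median 1.38). Their summed level was 27520 to 27677 CPM in Control, 4344 to 4363 with saline and 11909 to 12998 with FMT. Of 9 heat shock genes, which respond to stress and handling, 4 were higher and 5 lower in 5-FU+Saline, and 5 were higher and 4 lower with FMT than with saline. The stress-inducible Hspa1b went from 304 ± 3.42 CPM in Control to 2.05 ± 0.329 with saline and 100.1 ± 5.76 with FMT. Its near-identical copy Hspa1a went from 126 ± 0.967 to 0.959 ± 0.0873 and 43.3 ± 3.31. Reads that match both copies may be missing from both counts. The summed level of the 9, most of it Hspa8 and Hsp90aa1, was 4800.3 to 4840.1 CPM in Control, 4548 to 4624 with saline and 4480.4 to 4601 with FMT. The part of cell handling in the levels of the 10 genes was not tested.

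For each of the 10, the genes with the most similar profile were found by the root mean square difference of mean-centred log2(CPM + 0.5) over the 9 libraries, among genes with a mean of at least 10 CPM. Nfkbiz lay nearest to Rasa4 (0.0476) and Csf3r (0.0553), and Tnfaip3 to Atf4 (0.0295) and Herpud1 (0.0369). Isca1 (0.0362) was among the 2 genes nearest to Nfkbia. Rela lay nearest to Pan3 (0.0337) and Kif21b (0.0385), Rel to Mroh1 (0.0391) and Sertad2 (0.0447), and Nfkb2 to Plod3 (0.0417) and Midn (0.0427). Nfkb1 lay nearest to Mapre1 (0.0172) and Rpl8 (0.0201), Bcl3 to Lins1 (0.0324) and Oxa1l (0.0377), Myd88 to Nubp1 (0.0516) and Acbd6 (0.0545), and Relb to Fbxw5 (0.0767) and Snhg5 (0.0769). Within the 10, the closest pairs were Rel with Rela (0.0689), Nfkb2 with Nfkbia (0.0737) and Bcl3 with Nfkb1 (0.0763). With 3 groups this far apart, many genes share a profile, and the measure is a description.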

How the data were processed

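The deposited values are read-pair counts per gene, with 1 table for each of 9 libraries. The submitters' processing notes name Trim Galore 0.6.5, HISAT2 2.2.1 and the mm10 build, without their settings. Per the file headers, featureCounts 2.0.1 summed the authors' counts over exons of GENCODE vM25 genes, with no option for strand or multiply mapped reads. Gene IDs were matched to symbols without their version (55141 of 56262). Total counts were 11098031 to 19270976 per library.

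From these counts, filterByExpr kept 16595 genes, including all 10 members. Libraries were scaled by TMM, and edgeR 4.0.16 in R 4.3.3 fitted all 3 groups in one model, with Benjamini-Hochberg adjustment over all genes tested. SEs are the log2 fold change divided by the root of F. The members, the gene lists, the naming rule (all 10 members, up to 2 genes per list and direction by p, and the 2 most similar genes, of which 1 is not reported here) and the alternatives were chosen with earlier results of these data known. Nfkbie, Tnf, Tnip1, Tnip2, Cyld and the sex-linked genes were added after their values were seen. Alternatives were RLE and upper-quartile factors, library sizes without immunoglobulin genes, DESeq2 1.42.0, limma-voom (limma 3.58.1), no filter, a stricter filter (1 CPM in every library of a group), fits of 2 groups, a replicate block and leaving out each library. Figures were drawn with matplotlib 3.10.9.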

Additional observations from a re-analysis of the deposited data

How the results depend on the processing

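Each gene was refitted under 18 alternatives. Over the 3 comparisons Nfkb1, Rel, Rela, Nfkbia, Nfkbiz and Tnfaip3 kept their direction and call in all of them. With upper-quartile factors 1 member was higher and 32 pathway genes were lower in 5-FU+FMT against Control, in place of 3 and 21. When single libraries were left out, members higher in that comparison ranged from 1 to 3, and members lower in 5-FU+FMT against 5-FU+Saline from 1 to 2. The Relb change in 5-FU+FMT against 5-FU+Saline turned to 0.0519 without 5-FU+Saline replicate 2 and to 0.0124 without 5-FU+FMT replicate 3. With raw counts, genes with long exon totals weigh more. The log2 ratio of Nfkbia to the subunits then differed by -0.39, 0.18 and -0.21 in the 3 comparisons, in place of -0.16, 0.09 and -0.07. Leaving out single libraries moved the last of these between -0.11 and -0.03. With a replicate block, 6 members were lower and 3 higher in 5-FU+Saline against Control, as without it. Libraries of the same number in different groups showed little shared deviation (correlations from -0.00694 to 0.0521 over 9 pairs). With 3 libraries a group, this cannot exclude a pairing or a shared batch. Relb, Bcl3 and Myd88, the 3 members with the lowest CPM, had most of the calls that changed; the cause was not tested.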
